A study of Mus musculus with 8 samples.

Results

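The genes described here encode the eukaryotic translation initiation factors of the mouse. They are the protein-coding genes whose current symbol begins with Eif followed by a digit from 1 to 6, and 55 of them were found among the 50686 Ensembl gene identifiers of the count table. One further symbol of this form, Eif4a3l1, had no matching identifier in the table, and the 4 Argonaute genes, which older annotations listed as Eif2c1 to Eif2c4, were not counted as members because their current symbols are Ago1 to Ago4. Of the 55 members, 54 passed the filter on low counts in the group comparisons, and Eif4e1b did not. The mean level of 51 members was at least 1 on the log2 CPM scale (CPM, the counts of a gene scaled to a common library total with TMM factors), and Eif2s3y, Eif4e1b, Eif4e3 and Eif4ebp3 lay below it.

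RNA was measured in mouse embryonic stem cells (mESCs) that were either wild type (R9wt) or carried a homozygous deletion of Rad9 (R9del), a DNA damage checkpoint gene. Both genotypes were cultured for 1 day (D1) or 5 days (D5) in a payload aboard the SJ-10 satellite (Space) or in the same kind of payload on Earth (Ground), which gave 8 libraries, 1 for each combination, and no condition had a replicate. Cells of all groups were fixed in RNAlater, and the space samples also went through launch and return. The D1 and D5 devices had separate temperature controllers and were seeded with different cell numbers, so culture duration cannot be told apart from these. For D5 more R9del than R9wt cells were seeded, while for D1 the numbers were equal. Genotype at D5, and the interaction of genotype and duration, thus cannot be told apart from the seeded number. Library totals lay between 58238440 and 96416907 counts. The deleted gene, Rad9, was at 70.3 to 93.4 CPM in the R9wt libraries and at 20.8 to 28.6 CPM in the R9del libraries. Of 11 matched mESC markers, all were tested, and Pou5f1, the pluripotency factor Oct4, lay between 959 and 1804 CPM. The summed level of 10 fibroblast markers was at most 61.4 CPM in any library. Thy1 reached 38.7 CPM, Pdgfrb 26.8 CPM, Col1a1 10.4 CPM and Col1a2 8.88 CPM, and the other 6, Lum, Dcn, Postn, Fap, Col3a1 and Twist2, were at most at 0.246 CPM. A lower level in such bulk RNA cannot tell fewer cells of a type from less RNA per cell.

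Translation initiation begins when eIF2, a GTP-binding trimer, brings the initiator tRNA to the small ribosomal subunit, helped by eIF1, eIF1A and the large scaffold complex eIF3. The mRNA is recruited through the cap-binding protein eIF4E, the scaffold eIF4G and the helicase eIF4A, and 4E-binding proteins compete with eIF4G for eIF4E until mTORC1 phosphorylates them. After start codon recognition eIF5 promotes GTP hydrolysis on eIF2, eIF5B joins the large subunit, and eIF2B reloads eIF2 with GTP, a step that is blocked when any of the eIF2 alpha kinases phosphorylates eIF2.

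Per kilobase of exon, the level of the members spanned several orders of magnitude. Eif5a, whose hypusinated product acts in elongation, was highest with a median of 784 CPM per kb over the 8 libraries (range 367 to 1246). It was followed by Eif4ebp1, a 4E-binding protein, at 586 CPM per kb and by Eif1, a start codon selection factor, at 531 CPM per kb. Among the eIF3 genes the median ran from 302 CPM per kb for Eif3e and 300.2 CPM per kb for Eif3h down to 18.4 CPM per kb for Eif3j2 and 5.25 CPM per kb for Eif3j1, the loosely bound j subunits. The 4 eIF2 alpha kinase genes lay between 2.95 CPM per kb (Eif2ak4, the amino acid sensor GCN2) and 12.9 CPM per kb (Eif2ak1, the heme-regulated kinase). Eif4e3 and Eif4e1b, paralogs of the cap-binding protein, were the lowest, at 0.0369 and 0.0405 CPM per kb. The largest ratio between the highest and lowest library, among members above 0 in every library, was 12.3 for Eif3f, and the smallest was 1.25 for Eif2a.

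**Figure D1:**
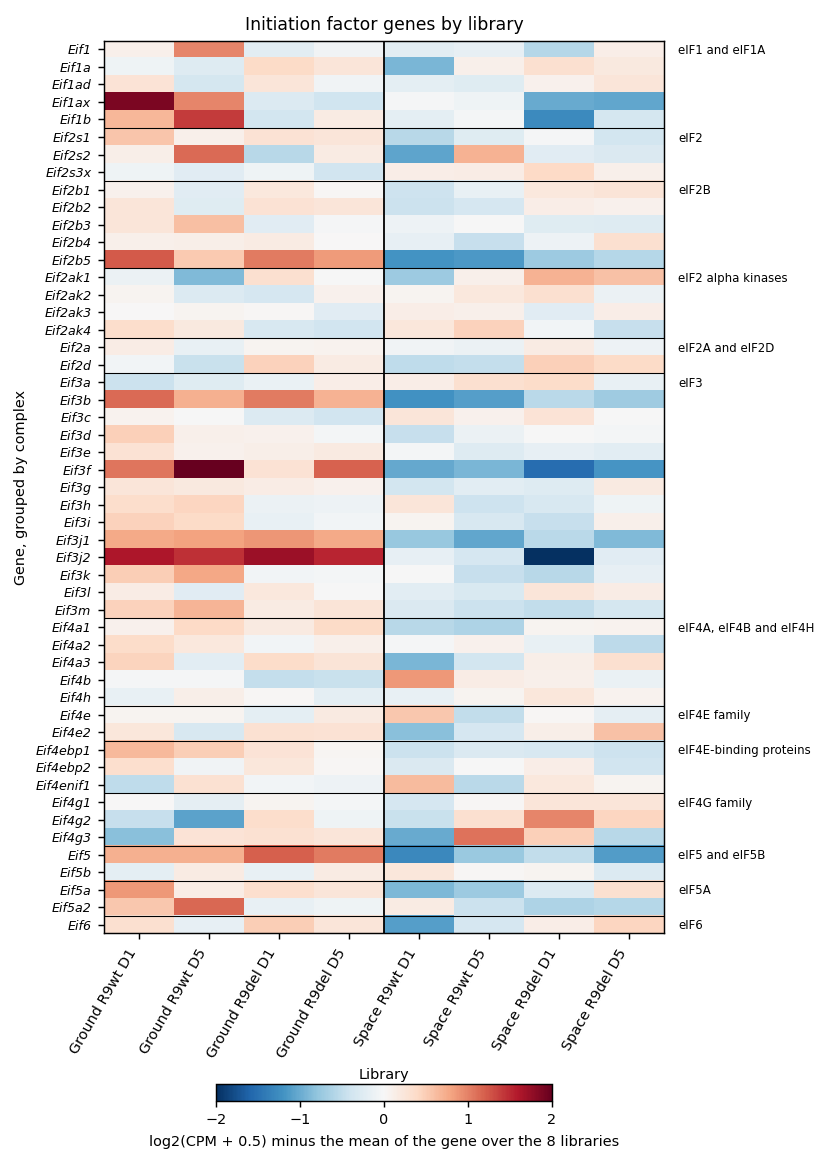
Heat map of the 51 members with a mean log2 CPM of at least 1. Rows are genes grouped by complex, columns are the 8 libraries, and the colour is log2(CPM + 0.5) minus the mean of the gene over the libraries, with colours saturating at 2 in either direction. Eif3f, Eif3b, Eif3j1, Eif3j2, Eif2b5 and Eif5 are above their mean in all ground libraries and below it in all space libraries.

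The first comparison asked how culture in space was associated with the level of each factor, with 4 space libraries against 4 ground libraries. A group of 4 of the 14 eIF3 genes, the eIF2B subunit gene Eif2b5, the GTPase activator gene Eif5 and the eIF4E repressor gene Eif4ebp1 were downregulated in space, and no member passed the test as upregulated. In edgeR's quasi-likelihood test, with p adjusted over 20473 genes after Benjamini and Hochberg, 7 of 54 members fell at an adjusted p under 0.05, which are Eif3f, Eif3b, Eif3j1, Eif3m, Eif2b5, Eif5 and Eif4ebp1. These are 13.0% of the members tested, beside 5.13% of all genes called lower. With 1 library left out, Eif3m was called in 2 of 8 fits and Eif4ebp1 in 1 of 8, and the other called members in all 8. No member rose in edgeR's or DESeq2's test at this threshold, beside 1.19% of all genes in edgeR's, and 2 of the members with an unadjusted p under 0.05, Eif2s3x and Eif4b, were higher in space. At a fold change of at least 2 with an unadjusted p under 0.05, 6 members fell, beside 7.97% of all genes, and none rose, beside 2.91% of all genes. The 6 are Eif3f, Eif3b, Eif3j1, Eif2b5, Eif5 and Eif1ax.

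The members as a whole lay slightly toward the ground side. Of 54 members, 35 had a negative and 19 a positive log2 fold change, and the median was -0.24, beside a median of 0.05 over all genes tested. With library size alone in place of TMM scaling, 32 members were negative. At an unadjusted p under 0.05 stood 14 members (25.9%), beside 18.9% of all genes. The space and ground libraries did not overlap for 11 members that were lower in space, beside 9.37% of all genes, and for 1 member that was higher, beside 5.07% of all genes. The 11 are the 7 called members with Eif2s1, Eif3e, Eif3j2 and Eif4a1, and the member that was higher is Eif2s3x.

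**Figure D2:**
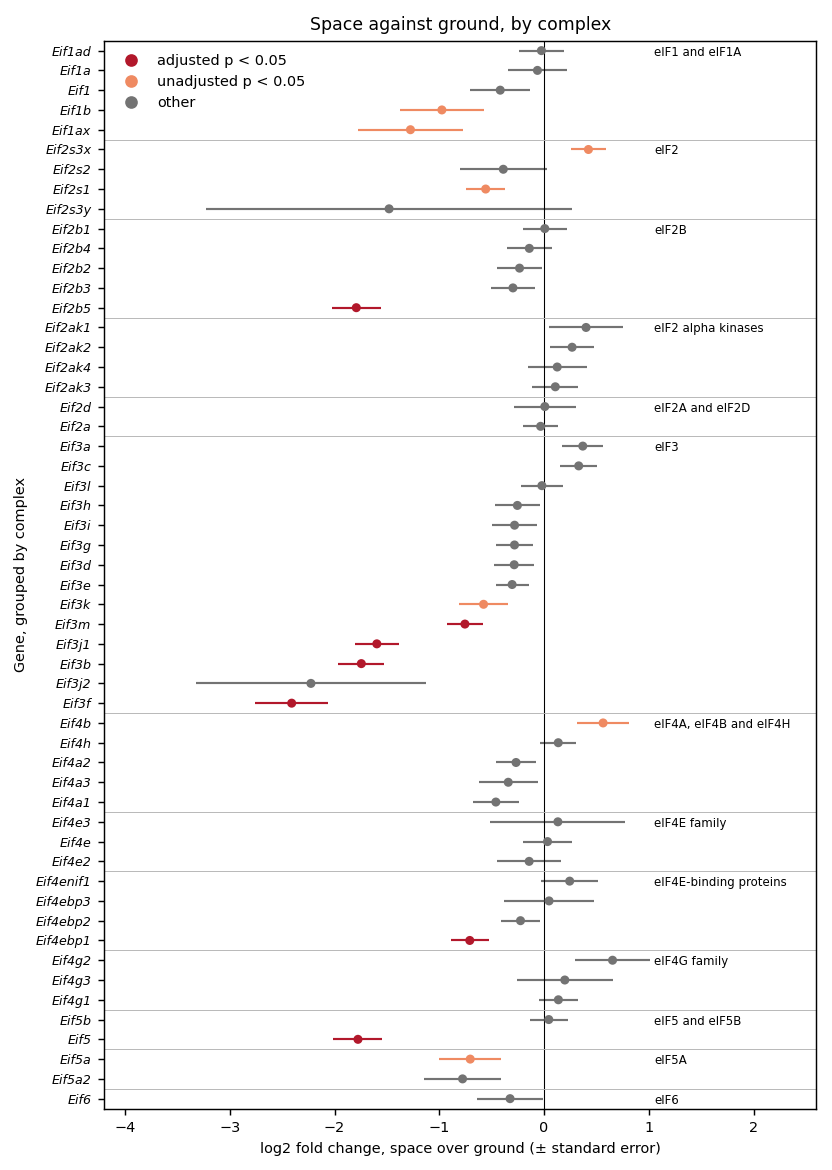
Log2 fold change of space over ground for the 54 members tested, grouped by complex. Points are the estimates of edgeR's quasi-likelihood test, and bars are ± 1 standard error derived from its F statistic. The 7 members with an adjusted p under 0.05 lie on the negative side, between -2.41 and -0.71.

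The eIF3 complex held 4 of the 7 called members. Values below are given for R9wt D1, R9wt D5, R9del D1 and R9del D5 in this order. Eif3f (ENSMUSG00000031029, chr7:116077931-116086465 of mm9), a subunit of the MPN domain family, was at 234, 475, 137 and 254 CPM in the ground libraries and at 54.7, 58.7, 38.6 and 49.0 CPM in the space libraries. Every space library lay below every ground library, and the lowest ground value was more than 2 times the highest space value. The means were 275 ± 143 CPM on the ground and 50.3 ± 8.75 CPM in space (SD, n = 4 each). The log2 fold change of Eif3f was -2.41 with a standard error of 0.35 (edgeR adjusted p = 0.0024), the lowest of all members. Every later ± beside a log2 fold change or an interaction is a standard error obtained in the same way. It is the size of the estimate divided by the square root of the F statistic of edgeR's test, so it carries no information beyond that test.

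Eif3b (ENSMUSG00000056076, chr5:140895259-140919314 of mm9), an RNA-binding core subunit, was at 522, 386, 484 and 382 CPM on the ground and at 102, 110, 162 and 144 CPM in space. The groups were well separated, and the log2 fold change was -1.74 ± 0.22 (edgeR adjusted p = 0.00099). Eif3j1 (ENSMUSG00000027236, chr2:121854282-121882334 of mm9), the j subunit, was at 43.7, 45.0, 47.6 and 43.7 CPM on the ground and at 14.9, 12.2, 17.5 and 13.6 CPM in space, with a log2 fold change of -1.60 ± 0.21 (edgeR adjusted p = 0.0012). Its 4 ground values were close to each other, with a mean of 45.0 ± 1.84 CPM against 14.5 ± 2.26 CPM in space (SD, n = 4 each).

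Of the exonic 50-mers of Eif3j1, 75.8% occur elsewhere in the mm9 genome, as do 76.6% of those of Eif3j2, a single-exon copy, and the exons of Eif3j1 overlap Spg11 on the other strand over 19.0% of their length. How the counts were divided between such copies is not given in the sources used here. Eif3j2 itself was at 74.2, 66.5, 78.8 and 69.1 CPM on the ground and at 21.1, 18.7, 0 and 20.3 CPM in space. The value of 0 counts in Space_R9del_D1 allows up to 0.0426 CPM and stood apart from the other 3 space libraries. The log2 fold change of -2.23 ± 1.1 had an adjusted p of 0.32 in edgeR's test, and without Space_R9del_D1 the adjusted p was 0.0017, the only setting of this comparison in which it was called.

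Eif3m (ENSMUSG00000027170, chr2:104839813-104857237 of mm9), a PCI domain subunit, differed less. It was at 430, 503, 352 and 374 CPM on the ground and at 255.5, 232, 223 and 246 CPM in space, with a log2 fold change of -0.75 ± 0.18 (edgeR adjusted p = 0.031). Over the 8 fits that left out 1 library the adjusted p ran from 0.043 to 0.091, and the call held only without Space_R9wt_D1 or without Ground_R9del_D1. Of the other eIF3 genes, Eif3k had a log2 fold change of -0.58 ± 0.24 at an unadjusted p of 0.036, and Eif3e one of -0.30 ± 0.16, with every space library below every ground library. Eif3a and Eif3c, subunits of the structural core, were the only eIF3 genes with a positive log2 fold change, 0.37 ± 0.20 and 0.33 ± 0.18, and neither passed the test. The summed level of the 14 eIF3 genes lay between 3723 and 4055 CPM in space and between 4630 and 5324 CPM on the ground.

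**Figure D3:**
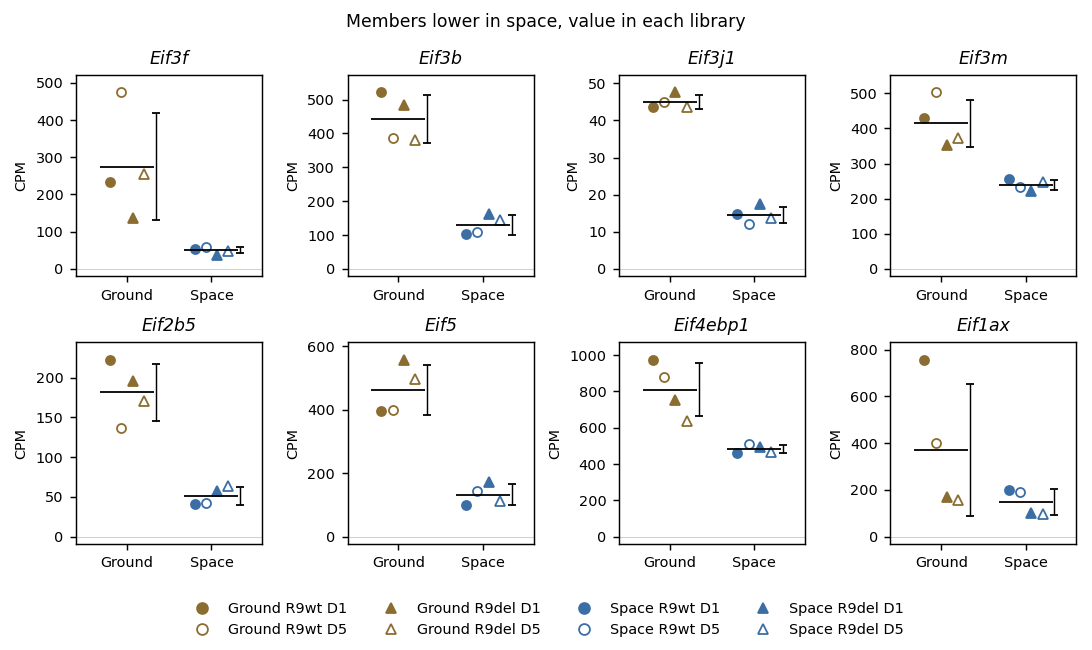
CPM of 8 members in each library, by location. Circles are R9wt and triangles R9del, filled symbols are D1 and open symbols D5, lines are means and bars are ± 1 SD over 4 libraries. For the first 7 genes all space libraries lie below all ground libraries, and for Eif1ax the groups overlap.

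Among the eIF2B genes Eif2b5 alone passed the test. Eif2b5 (ENSMUSG00000003235, chr16:20498890-20510028 of mm9), which encodes the catalytic epsilon subunit of this exchange factor, was at 222, 137, 195 and 171 CPM on the ground and at 41.1, 42.5, 57.2 and 63.7 CPM in space. The log2 fold change was -1.79 ± 0.23 (edgeR adjusted p = 0.0012). Eif2b1 to Eif2b4, the other 4 subunits, had log2 fold changes from -0.30 to 0.01, and none passed the test. Eif5 (ENSMUSG00000021282, chr12:112776312-112794270 of mm9), the GTPase activator of eIF2, was at 396, 399, 557 and 497 CPM on the ground and at 98.8, 145, 172 and 112 CPM in space. Its log2 fold change was -1.78 ± 0.23 (edgeR adjusted p = 0.0013), and the groups did not overlap. Eif5b, the subunit joining GTPase, had a log2 fold change of 0.05 ± 0.18.

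Eif4ebp1 (ENSMUSG00000031490, chr8:28370799-28386128 of mm9), a repressor of eIF4E, was at 973, 879, 750 and 638 CPM on the ground and at 461, 511, 496 and 466 CPM in space. All space values were lower, with a log2 fold change of -0.71 ± 0.18 (edgeR adjusted p = 0.049). With the matched pair block the adjusted p was 0.051, with DESeq2's size factors 0.055 and without the filter 0.074, so the call was lost, and the adjusted p ran from 0.047 to 0.12 over the 8 fits that left out 1 library and fell under 0.05 only without Ground_R9del_D5. Eif4ebp2 had a log2 fold change of -0.22 ± 0.19 and Eif4enif1, the eIF4E transporter, one of 0.24 ± 0.27. Eif4ebp3, at 0.506 to 1.00 CPM in all libraries, is low, and 67.3% of its exonic length overlaps Ankhd1 on the same strand.

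Other members of the cap-binding machinery did not pass the test. Eif4e had a log2 fold change of 0.03 ± 0.23, Eif4e2 of -0.14 ± 0.30, and Eif4g1, Eif4g2 and Eif4g3 of 0.14 ± 0.19, 0.65 ± 0.36 and 0.20 ± 0.46. The helicase gene Eif4a1 was lower in every space library than in any ground library, with a log2 fold change of -0.46 ± 0.22 (unadjusted p = 0.060), while that of Eif4a2 was -0.27 ± 0.19. Eif4b, a cofactor of the helicase, was higher in space in all 4 matched pairs with a log2 fold change of 0.56 ± 0.25 (edgeR adjusted p = 0.26).

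No gene of the alpha kinases or of the eIF2 trimer passed the test at an adjusted p under 0.05. All 4 kinase genes had a positive log2 fold change, 0.40 ± 0.35 for Eif2ak1, 0.27 ± 0.21 for Eif2ak2 (PKR), 0.11 ± 0.22 for Eif2ak3 (PERK) and 0.13 ± 0.28 for Eif2ak4, and no unadjusted p was under 0.05. Eif2s1, the alpha subunit that they phosphorylate, was at 508 to 693 CPM on the ground and at 320 to 462 CPM in space, with a log2 fold change of -0.56 ± 0.19 (edgeR adjusted p = 0.13). Eif2s3x, the X-linked gamma subunit, was at 138 to 170 CPM on the ground and at 193 to 238 CPM in space, the only member whose space values all lay above its ground values, with a log2 fold change of 0.42 ± 0.17 (edgeR adjusted p = 0.20). Copies elsewhere in the genome hold 91.5% of its exonic 50-mers.

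The eIF1 and eIF1A genes all had a negative log2 fold change, and none passed an adjusted p of 0.05. Eif1ax (ENSMUSG00000067194, chrX:155810110-155827860 of mm9), the X-linked eIF1A gene, was at 756, 403, 169 and 155 CPM on the ground and at 201, 193, 102 and 99.1 CPM in space. Each space value was below its matched ground value, but the R9del ground values lay below the R9wt space values. The log2 fold change was -1.28 ± 0.50 (unadjusted p = 0.030, edgeR adjusted p = 0.20), and it passed when the 4 pairs of matched libraries entered as a block (adjusted p = 0.035). Without Ground_R9wt_D1 the log2 fold change was -0.69. Eif1a, the autosomal paralog, had a log2 fold change of -0.06 ± 0.28. Eif1b, a paralog of Eif1, was lower in space in 4 of 4 pairs with a log2 fold change of -0.98 ± 0.40 (edgeR adjusted p = 0.22). With the other 2 variables as covariates both Eif1ax (adjusted p = 0.023) and Eif1b (adjusted p = 0.034) passed. Over all genes 7.46% were called lower with these covariates and 6.52% with the block, beside 5.13% without either. Eif5a and Eif5a2 had log2 fold changes of -0.70 ± 0.30 and -0.78 ± 0.37 (edgeR adjusted p = 0.23 and 0.29), and Eif6, which keeps free large subunits apart, one of -0.32 ± 0.31.

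The differences between space and ground were also read within each genotype and duration, as ratios of 1 library to another and without a test. The median log2 ratio of the members was -0.44 for R9wt at D1, -0.20 for R9wt at D5, -0.15 for R9del at D1 and -0.14 for R9del at D5, beside medians between -0.07 and 0.02 over all genes. For Eif3f the log2 ratios were -2.10, -3.02, -1.83 and -2.38 in the same order, and for Eif3b -2.36, -1.81, -1.58 and -1.41. Eif2b5 gave -2.43, -1.69, -1.77 and -1.43, Eif5 gave -2.0, -1.46, -1.69 and -2.14, and Eif3j1 gave -1.56, -1.89, -1.44 and -1.68. No log2 ratio of these 5 genes was above -1.41. The interaction of location and genotype was 0.56 ± 0.34 for Eif3b, 0.47 ± 0.40 for Eif2b5, 0.42 ± 0.41 for Eif3f, 0.14 ± 0.39 for Eif3j1 and -0.22 ± 0.42 for Eif5 on the log2 scale, and by the test of the interaction of location and genotype none of the 55 members had an adjusted p under 0.05, beside 0.0% of all genes. Neither did DESeq2's Wald test call any, beside 34 of 22561 genes.

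The sequences behind these genes are shown because most, though not all, of the called members had a GC-rich stretch in their exons. In mm9 the most GC-rich 200 nt of the exons had a median GC content of 76.5% over the 7 called members, against 67.5% over the 47 other members tested. The medians were 76.0% over the 978 genes called lower in space that had a gene model and 67.0% over all 17505 genes tested with one. Of the 15 members in the upper quartile of all genes by this measure (at least 74.0%), 6 were called lower, and of the 39 below it 1 was called, Eif3m. Over all genes 15.3% of the upper quartile and 2.16% of the rest were called lower. The relation was not monotonic. Genes under 50% had a median log2 fold change of -0.40, genes with windows of 75% to 80% one of -0.39, those of 80% to 85% one of -0.13 and those of 85% or more one of 0.00. Members with a window as rich that were not called include Eif4enif1 (87.0%), Eif4e2 (86.0%) and Eif2ak3 (80.5%). Across genes, Spearman's rho of the log2 fold change with this GC content was -0.21 over all genes and -0.14 over the 54 members, and 0.06 over the 47 members that were not called. With exon length, rho was 0.24 over all genes and 0.33 over the 54 members. The parts of GC content and of exon length in these differences were not tested.

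**Figure D4:**
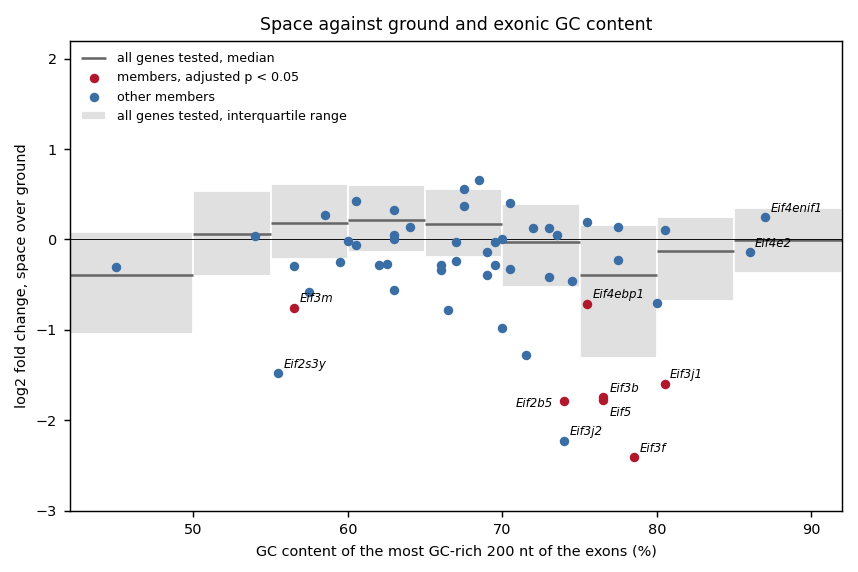
Log2 fold change of space over ground against the GC content of the most GC-rich 200 nt of the exons. Points are the 54 members, red for an adjusted p under 0.05 in edgeR's test, and grey boxes with lines give the interquartile range and median of all genes tested. Of the 7 called members 6 lie at 74% GC or more, as do 9 members that were not called.

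The most GC-rich 60 coding bases within 1 coding exon were then compared over 52 of the members. Eif2b5 and Eif3f (86.7% GC each) ranked highest, followed by Eif3b, Eif3j1 and Eif2ak1 (81.7% each), so that 4 of the 5 were called lower in space and the kinase gene Eif2ak1 was not. Of the 3 members next in rank at 80%, Eif4ebp1 was called and Eif2ak3 and Eif4g1 were not, and of the other called members Eif3m was at rank 41 (60%) and Eif5 at rank 49 (55%, with no CpG). This measure was not computed for genes outside the family. The 5 highest stretches are given below from mm9, 5′ to 3′ on the strand of the gene, with CpG dinucleotides in capitals.
Eif2b5, chr16:20499007-20499066, + strand: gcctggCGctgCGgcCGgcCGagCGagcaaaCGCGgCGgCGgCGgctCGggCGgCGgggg
Eif3f, chr7:116078151-116078210, + strand: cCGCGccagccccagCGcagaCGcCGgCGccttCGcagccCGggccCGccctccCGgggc
Eif3b, chr5:140895332-140895391, + strand: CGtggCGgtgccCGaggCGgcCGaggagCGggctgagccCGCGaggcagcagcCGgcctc
Eif3j1, chr2:121854563-121854622, + strand: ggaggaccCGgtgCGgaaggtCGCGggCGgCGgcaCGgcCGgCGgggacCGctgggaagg
Eif2ak1, chr5:144578765-144578824, + strand: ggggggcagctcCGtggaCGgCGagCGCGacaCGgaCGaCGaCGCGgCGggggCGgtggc
They hold 13, 10, 9, 10 and 12 CpG dinucleotides. All lie in coding exon 1, except that of Eif3j1 in coding exon 2.

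The promoters of the genes that fell together were also read. RefSeq sequences of GRCm38.p6, from 250 bases before to 50 bases after the annotated start, were at hand for 43 members and for 6 of the 7 called ones. The median number of CpG dinucleotides was 21 over these 6, 25 over the promoters of other members and 7 over all 32851 promoters. The 100 bases before the start are given for the 5 members that passed both thresholds, with matches to the motifs searched in capitals.
Eif3f, chr7:108934315-108934414, + strand: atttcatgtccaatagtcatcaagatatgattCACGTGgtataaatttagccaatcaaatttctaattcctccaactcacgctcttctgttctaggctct
Eif3b, chr5:140419205-140419304, + strand: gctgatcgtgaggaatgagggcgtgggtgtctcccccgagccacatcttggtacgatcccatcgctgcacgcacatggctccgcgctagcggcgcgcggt
Eif3j1, chr2:122028480-122028579, + strand: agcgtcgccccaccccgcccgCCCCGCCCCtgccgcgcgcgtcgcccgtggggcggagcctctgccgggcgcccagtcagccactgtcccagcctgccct
Eif2b5, chr16:20498717-20498816, + strand: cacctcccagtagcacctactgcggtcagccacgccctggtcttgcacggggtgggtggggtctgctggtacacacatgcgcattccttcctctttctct
Eif5, chr12:111538001-111538100, + strand: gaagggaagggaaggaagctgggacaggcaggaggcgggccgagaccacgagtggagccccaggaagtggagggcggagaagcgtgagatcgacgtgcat
Matches to 6 motifs were searched on both strands, CACGTG (E-box), CCGGAAG (ETS), GGGGCGGGG (SP), TGACGTCA (CRE), GCGCATGCG (NRF1) and AAGATGGCG (YY1). In the 100 bases shown, Eif3f held CACGTG and Eif3j1 the complement of GGGGCGGGG, and the matches did not overlap another motif. In the full 300 bases CACGTG was in 1 of the 6 called members (7.15% of all promoters), CCGGAAG in 1, Eif3m (8.86%), and GGGGCGGGG in 2, Eif3j1 and Eif5 (11.4%). Of all 43 members with a promoter, 10, 16 and 6 held these motifs. The other 3 were in none of the 6, and in 1.79%, 1.75% and 1.4% of all promoters in the order given. A match here describes letters and not binding.

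The second comparison asked how deletion of Rad9 was associated with the factors, with 4 R9del libraries against 4 R9wt libraries. The Y-linked gene Eif2s3y was detected mainly in R9del and the X-linked gene Eif1ax was lower there. By edgeR's test 1 of 54 members rose at an adjusted p under 0.05, Eif2s3y, beside 1.19% of all genes. None fell, beside 0.85% of all genes. DESeq2's Wald test called 3 of 54 members, Eif2s3y, Eif1ax and Eif2d, and 2045 of the 20473 genes. Eif2s3y passed the filter on low counts only through R9del, the group where it was higher, and edgeR's test did not call it without that filter. No conclusion is drawn from the p-values of Eif2s3y in this comparison. At a fold change of at least 2 with an unadjusted p under 0.05, 1 member rose, Eif2s3y, beside 6.37% of all genes, and 1 fell, Eif1ax, beside 7.39%. The median log2 fold change of the members was 0.04, beside -0.05 over all genes, and 10 members (18.5%) had an unadjusted p under 0.05, beside 20.2% of all genes. R9del lay wholly above R9wt for Eif1a, Eif2d and Eif2s3y, beside 7.1% of all genes, and wholly below it for Eif1ax and Eif2ak4, beside 7.19% of all genes.

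Eif2s3y (ENSMUSG00000069049, chrY:346986-365290 of mm9), the Y-linked copy of the eIF2 gamma gene, had 0, 9, 0 and 0 counts in the R9wt libraries (ground D1, ground D5, space D1, space D5) and 134, 278, 103 and 36 counts in the R9del libraries. All R9del libraries lay above all R9wt libraries, at 0.604 to 3.80 CPM against at most 0.101 CPM. The fitted log2 fold change of 6.09 ± 1.19 (edgeR adjusted p = 0.041) rests on libraries at 0 and depends on the prior count. With 1 library left out it ran from 5.58 to 10.1, and without the filter on low counts the gene was not called. The adjusted p lay between 0.052 and 0.12 when any 1 library was left out. The other Y-linked genes were low. Of 7 matched Y-linked genes, Ddx3y, an RNA helicase gene, was the only other one tested, with 0.302 to 0.688 CPM in R9del and at most 0.0465 CPM in R9wt (log2 fold change 4.24 ± 0.90, edgeR adjusted p = 0.048). With 18 to 46 counts in R9del and at most 4 in R9wt, Ddx3y also entered the test only through R9del, and no conclusion is drawn from its p-value. Uty, too low to be tested, was at 0.0598 to 0.242 CPM in R9del and at most 0.0299 CPM in R9wt. Zfy1, Zfy2 and Sry had no counts in any library, and Kdm5d was at most 0.0233 CPM in each. Usp9y had counts in Space_R9del_D1 only (0.0569 CPM). Eif2s3x did not follow Eif2s3y, at 138 to 238 CPM in R9del and at 155 to 199.9 CPM in R9wt (log2 fold change 0.04 ± 0.23).

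The coding sequences of the X and Y copies are both 1419 bases long and were 86.3% identical, with 194 mismatches and no identical run over 34 bases. The 60 coding bases with the most mismatches between them, 14 in bases 601 to 660 counted from the start codon, are given from the mm9 transcripts with mismatched bases in capitals.
Eif2s3x: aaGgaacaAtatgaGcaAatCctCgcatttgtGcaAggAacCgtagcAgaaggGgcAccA
Eif2s3y: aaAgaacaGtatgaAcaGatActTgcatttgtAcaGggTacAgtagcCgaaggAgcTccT
Reads of 100 bases, the length used, would thus carry at least 1 mismatch to the other copy wherever they lie in the coding sequence. Of the exonic 50-mers of Eif2s3y, 0.0272% occur elsewhere in the genome.

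Eif1ax was at 756, 403, 201 and 193 CPM in the R9wt libraries (ground D1, ground D5, space D1, space D5) and at 169, 155, 102 and 99.1 CPM in the R9del libraries. Every R9del value was below every R9wt value, and the log2 fold change was -1.54 ± 0.43 (unadjusted p = 0.0054, edgeR adjusted p = 0.095). The autosomal paralog Eif1a had the opposite sign, at 309.8 to 352 CPM in R9del and 144 to 290 CPM in R9wt, with a log2 fold change of 0.55 ± 0.23 (edgeR adjusted p = 0.22). Eif1b had means of 20.3 ± 7.72 CPM in R9del and 40.5 ± 21.7 CPM in R9wt (log2 fold change -0.97 ± 0.41, edgeR adjusted p = 0.23).

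Eif2d, which can deliver tRNA without GTP, was at 251 to 312 CPM in R9del and at 157 to 216 CPM in R9wt, a log2 fold change of 0.76 ± 0.19 (edgeR adjusted p = 0.075). Among the kinases, Eif2ak1 was at 0.79 ± 0.29 and Eif2ak4 at -0.60 ± 0.23 on the log2 fold change scale, with edgeR adjusted p of 0.165 and 0.18. Eif4g2, a relative of eIF4G without an eIF4E site, was at 0.81 ± 0.33, Eif4e2 at 0.62 ± 0.25, Eif6 at 0.59 ± 0.28 and Eif5a2 at -0.82 ± 0.36, all with an adjusted p of at least 0.20. Eif3f, Eif3b, Eif3j1, Eif2b5 and Eif5, the 5 called members most reduced in space, had genotype differences from -0.76 ± 0.77 for Eif3f to 0.39 ± 0.58 for Eif5. This fit held no term for location, so the space-ground difference of these genes enters the error. The ratio of difference to error thus cannot show whether genotype matters for them, and no conclusion is drawn from it. With the other 2 variables as covariates none of the 5 was called. With libraries of equal location and duration matched in a block, 5 members passed an adjusted p of 0.05, Eif2s3y, Eif1ax, Eif2d, Eif1b and Eif2ak1, beside 8.46% of all genes. Of these, Eif2s3y entered the test only through its R9del counts.

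**Figure D5:**
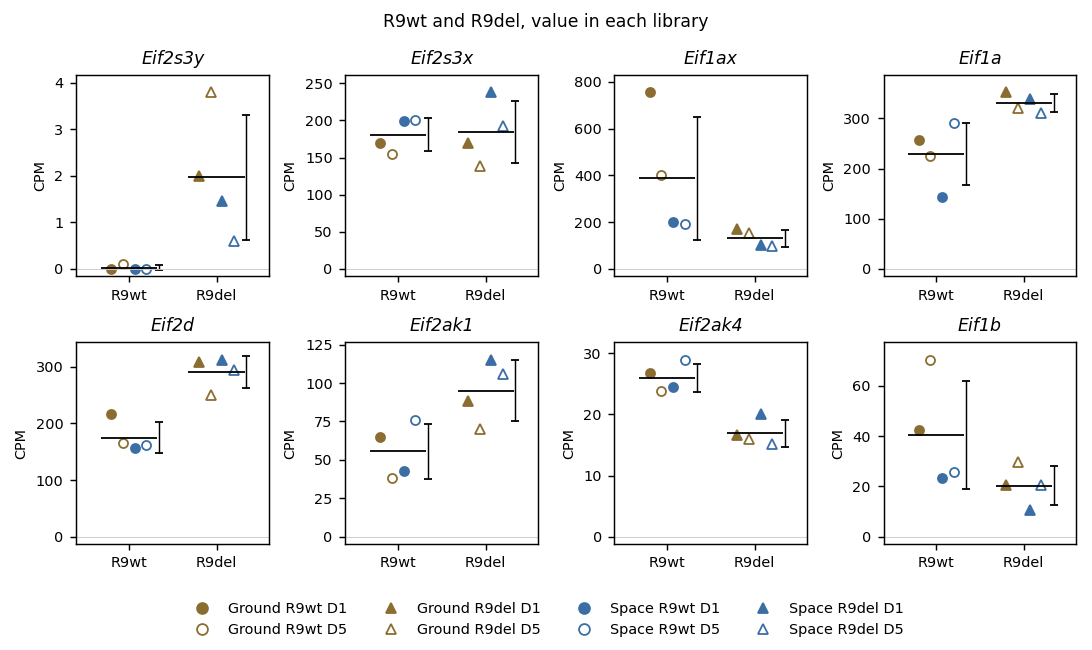
CPM of 8 members in each library, by genotype. Colours give location, circles are R9wt and triangles R9del, filled symbols are D1 and open symbols D5, lines are means and bars are ± 1 SD over 4 libraries. Eif2s3y, Eif1a and Eif2d lie higher in all R9del libraries, Eif1ax and Eif2ak4 lie lower in all of them, and Eif2s3x, Eif2ak1 and Eif1b overlap.

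Culture duration, the third variable, gave no call among the members. None rose or fell at an adjusted p under 0.05, beside 0.0% of all genes in either direction. No member passed a fold change of 2 with an unadjusted p under 0.05, beside 2.35% of all genes that rose and 1.08% that fell. DESeq2's Wald test also called no member at an adjusted p under 0.05, beside 90 of 20473 genes. The only member of 54 with an unadjusted p under 0.05, beside 4.32% of all genes, was Eif2s2, the eIF2 beta gene, at 193 to 309 CPM in 3 D1 libraries and 136 CPM in Space_R9wt_D1, against 233 to 626 CPM at D5. Its log2 fold change was 0.88 ± 0.35 (unadjusted p = 0.031, edgeR adjusted p = 1.0), and D5 was higher in 3 of 4 matched pairs. Eif1, Eif1b and Eif3f were higher at D5 in all 4 pairs, with log2 fold changes of 0.48 ± 0.29, 0.58 ± 0.49 and 0.83 ± 0.77, and Eif4g3 differed by 0.48 ± 0.46. With 1 library left out, Eif1 ran from 0.17 to 0.607, Eif1b from 0.0632 to 1 and Eif3f from 0.0525 to 1.43. On the other side stood Eif1ax at -0.54 ± 0.62, Eif2b5 at -0.33 ± 0.60, Eif3b at -0.33 ± 0.58, Eif4b at -0.32 ± 0.31 and Eif4e at -0.24 ± 0.25. The D1 and D5 libraries did not overlap for 1 member, the low gene Eif4ebp3, which was lower at D5, beside 1.17% of all genes, and for none that was higher, beside 1.68%.

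The interactions asked whether 2 of the variables depended on each other, with the third as a covariate. No member had an adjusted p under 0.05 in any of the 3 tests, neither by edgeR nor by DESeq2's Wald test. Of 22561 genes, the Wald test called 34 for location and genotype, 76 for location and duration and 156 for genotype and duration. For location and genotype Eif5a alone had an unadjusted p under 0.05, beside 3.12% of all genes, with an interaction of 1.09 ± 0.45 on the log2 scale (edgeR adjusted p = 1.0). Its space values were 872 and 988 CPM in R9wt and 1347 and 2025 CPM in R9del, while its ground values were 2963 and 1800 CPM in R9wt and 2060 and 1927 CPM in R9del. For location and duration, where 0.00443% of all genes were called at an adjusted p under 0.05, no member had an unadjusted p under 0.05, beside 6.59% of all genes, and Eif6 came closest with 0.92 ± 0.40 (unadjusted p = 0.050). For genotype and duration 0.0% of all genes were called at an adjusted p under 0.05, and 2 of 55 members had an unadjusted p under 0.05, beside 4.31% of all genes. Of these, Eif4g3 had an interaction of -2.19 ± 0.58 (unadjusted p = 0.0056, edgeR adjusted p = 0.83). It rose from 16.8 to 36.8 CPM on the ground and from 14.8 to 65.2 CPM in space between D1 and D5 of R9wt, and was at 37.6 and 35.9 CPM and at 42.5 and 20.5 CPM in R9del. Eif2s3y was the other, at its low level.

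Lists of genes that act beside the initiation factors were counted in the same fits, where for location edgeR called 5.13% of all genes lower and 1.19% higher, 18.9% had an unadjusted p under 0.05, and DESeq2's Wald test called 2381 of 20473 genes. Of 19 other initiation and scanning proteins, 2 were lower in space at an adjusted p under 0.05 and none higher. They are Mcts1, a partner of Denr in reinitiation (-1.31 ± 0.23, edgeR adjusted p = 0.0069), and Paip1, a partner of the poly(A)-binding protein (-1.19 ± 0.30, adjusted p = 0.047). Pabpc1, the poly(A)-binding protein itself, and Larp4 passed the 2-fold threshold in space only without adjustment (-1.02 ± 0.31 and -1.19 ± 0.32). Paip2, a repressor of that protein, was lower in R9del (-1.31 ± 0.23, edgeR adjusted p = 0.039). Of 20 genes of the mTORC1 and MNK pathway, 3 were lower in space at an adjusted p under 0.05 and none higher, while DESeq2's Wald test called 5. The median log2 fold change of the 20 was 0.15, and 7 had an unadjusted p under 0.05, the 3 called lower and 4 that were higher in all 4 matched pairs, Sesn2, Mtor, Tsc2 and Mknk1 (0.57 to 1.27). Akt1s1, the mTORC1 inhibitor PRAS40, had means of 4.02 ± 2.93 CPM in space and 75.7 ± 21.1 CPM on the ground (SD, n = 4 each), a log2 fold change of -4.21 ± 0.60 (edgeR adjusted p = 0.0022). Rheb, the GTPase that activates mTORC1, was at -1.82 ± 0.24 and the kinase gene Rps6ka1 at -1.45 ± 0.25. By genotype 9 of the 20 had an unadjusted p under 0.05, beside 20.2% of all genes, and they went both ways. DESeq2's Wald test called 3 of the 20 and edgeR's test none. The kinase gene Rps6ka3 was at -1.4 ± 0.38 in R9del (edgeR adjusted p = 0.086).

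Of 15 genes of the integrated stress response, which acts through phosphorylated eIF2, none had an edgeR adjusted p under 0.05 in any group comparison, with 2, 7 and 0 of them at an unadjusted p under 0.05 for location, genotype and duration, beside 18.9%, 20.2% and 4.32% of all genes, and 1, 3 and 0 called by DESeq2's Wald test. At a fold change of at least 2 with an unadjusted p under 0.05, Sesn2 and Atf3 were higher in space (1.27 ± 0.37 and 1.1 ± 0.42), Sesn2 was higher in R9del (1.08 ± 0.42), and Ddit3, Nupr1 and Vldlr were lower in R9del (-1.85 ± 0.65, -2.52 ± 0.58 and -2.03 ± 0.45). Of 8 elongation factor genes tested, Eef1e1 was lower in space (-0.82 ± 0.18, edgeR adjusted p = 0.022). Of 6 termination and recycling genes, Gspt1, the release factor eRF3a, was lower in space (-1.34 ± 0.31, adjusted p = 0.029) and Hbs1l was higher (0.80 ± 0.20, adjusted p = 0.047). Neither of the hypusine enzyme genes Dhps and Dohh had an unadjusted p under 0.05 in any group comparison, and DESeq2's Wald test called neither. Among the mESC markers Sox2 was lower in space (-0.94 ± 0.22, edgeR adjusted p = 0.032) and Esrrb was higher (1.2 ± 0.20, adjusted p = 0.0063), and DESeq2's Wald test called 4 of the 11. Utf1 and Lin28a had log2 fold changes of -0.82 ± 0.23 and 0.81 ± 0.26 (edgeR adjusted p = 0.069 and 0.11). Without adjustment, the 2-fold threshold was passed by the fibroblast marker Pdgfrb (1.2 ± 0.48 in space and -1.29 ± 0.46 in R9del), by Col1a2 at D5 (1.88 ± 0.72) and by the mESC marker Dppa5a in R9del (-1.03 ± 0.33). The part of cell state in the differences of the initiation factors was not tested.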

How the data were processed

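The libraries were mRNA-Seq libraries sequenced as paired-end reads of 100 bases. The authors aligned the reads to mm9 with TopHat 2.0.9 after FastQC and deposited raw read counts for 50686 Ensembl identifiers, with no normalization. The counting program, the annotation and the use of strand are not given in the sources used here, so reads may have been assigned to the wrong one of several overlapping or near-identical genes. All columns of the table were used.

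Samples were grouped by their titles. TMM factors, CPM (log2 CPM with a prior count of 2) and two-sided quasi-likelihood tests were computed with edgeR 4.0.16 in R 4.3.3, for 4 against 4 libraries without covariates on genes kept by filterByExpr with a minimum count of 10. Calls needed a Benjamini-Hochberg adjusted p under 0.05 over all genes tested, or a fold change of at least 2 with an unadjusted p under 0.05, the threshold in the study's methods. Interactions were tested with the third variable as covariate. P-values measure the spread between libraries that each represent another condition. On simulated counts for space against ground (19968 genes), 96 of 100 genes changed 4-fold and 30 of 100 changed 2-fold were recovered, with 4 false calls. The simulated counts held no difference by genotype or duration, and their spread was estimated with these variables in the model. The libraries of a group thus behaved as replicates there, and these rates do not carry over to the real comparison. The floor for a count of 0 was 3 counts, which covers counting error only, and was at most 0.0503 CPM.

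Symbols came from RefSeq (56 symbols fit the rule, 55 were paired with an identifier, 2 of them through an older symbol). Gene models came from GENCODE of mm9 and promoters from RefSeq of GRCm38.p6, and coordinates of the builds were not converted. The rule for named genes took every called member, the 5 highest and 5 lowest log2 fold changes per group comparison among members above a mean log2 CPM of 1, and a list of members by role. The other gene lists were written from general knowledge and their called genes are named, with some uncalled genes chosen after their values were seen. The members, lists and tests were chosen with earlier results of these data known. The libraries that share the other 2 conditions deviated together, with correlations of 0.284 to 0.61 across genes in the 12 matched pairs, where the pairing comes from the conditions. Alternatives were DESeq2's size factors, library size alone, no filter, DESeq2 1.42.0's Wald test, the other variables as covariates, matched pairs as a block, and each library left out.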

Additional observations from a re-analysis of the deposited data

Results flagged for a closer look

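Within groups of 4 libraries, 5 of the 70 groups checked held a library that stood apart from the other 3 by Dixon's criterion. Chance alone marks about 1 in 20 groups of replicates. Each group here held libraries of different conditions, so that rate does not apply to them. Eif1ax was at 756 CPM in Ground_R9wt_D1, where the other D1 libraries lay between 102 and 201 CPM. Eif2d was at 216 CPM in the same library, against 157 to 165 CPM in the other R9wt libraries. Eif2s3y was at 0.101 CPM in Ground_R9wt_D5, from 9 counts, and at 0 in the other R9wt libraries. Eif2s3x was at 238 CPM in Space_R9del_D1 and at 193 to 199.9 CPM in the other space libraries. Eif3j2 was at 0 CPM in Space_R9del_D1, against 18.7 to 21.1 CPM in the other space libraries, while its near-identical relative Eif3j1 was at 17.5 CPM in that library.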

How the results depend on the processing

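In space against ground Eif3f, Eif3b, Eif3j1, Eif2b5 and Eif5 were called in all 6 alternatives and in all 8 fits that left out 1 library, and no member was called higher in any of them. The count of members called lower was 6 to 9 over the alternatives and 5 to 6 with 1 library left out. It was 9 with the covariates, where 7.46% of all genes were called lower, beside 5.13% without them. Eif4ebp1 was no longer called with DESeq2's size factors, without the filter or with the matched pair block.

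In R9del against R9wt the members called higher at an adjusted p numbered 1, and 0 without the filter, 2 with DESeq2's Wald test, 2 with covariates, 3 with the matched pair block and 0 to 0 with 1 library left out. Those called lower numbered 0, and 1 with the Wald test, 2 with covariates and 2 with the block. The 1 called higher, Eif2s3y, entered the test only through its R9del counts. Over all genes 1.19% were called higher and 0.85% lower. These shares were 3.49% and 3.72% with covariates, and 4.44% and 4.02% with the block. With 1 library left out, 1 to 2 members were higher and 1 to 3 lower at the 2-fold threshold. The 3 lower members were reached without Space_R9wt_D5. The cause was not tested. For D5 against D1 this threshold gave 0 to 1 members that were higher, the 1 being Eif2s2 without Ground_R9wt_D1 or Space_R9del_D5.

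Of the called members and the 5 highest and 5 lowest of each group comparison, 5 differences turned sign when 1 library was left out. The genotype difference of Eif3f ran from -1.42 to 0.0487 (without Ground_R9wt_D5) on the log2 scale. For D5 against D1 Eif1ax ran from -1.05 to 0.416, Eif2b5 from -0.675 to 0.0754 and Eif3b from -0.605 to 0.0274, each highest without Ground_R9wt_D1, and Eif4b from -0.474 to 0.0158 (without Space_R9wt_D1). In the 3 interactions no member had an adjusted p under 0.05 with DESeq2's Wald test, with library size alone or without the covariate, the only alternatives run for them. At the 2-fold threshold Eif5a (location and genotype) was lost with the Wald test and with library size alone, Eif2s3y (genotype and duration) was lost without the covariate, and for location and duration Eif2s3y appeared with the Wald test and Eif4enif1 with library size alone. With 1 library per condition, differences between single conditions have no replicate check, and libraries at 0 counts, under the floor of 3 counts, limit the values of Eif2s3y, Eif4e1b and Eif3j2. CPM values are relative, so a change in total mRNA per cell cannot be seen.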
